A study of Homo sapiens with 12 samples.

Results

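Death receptors are receptors of the tumor necrosis factor family whose cytoplasmic death domain can start apoptosis from the cell surface. RNA levels are described here for 10 genes of this system, which were selected by symbol: the receptors *FAS*, *TNFRSF10A*, *TNFRSF10B* and *TNFRSF1A*, the decoy receptors *TNFRSF10C* and *TNFRSF10D*, the adaptor *FADD*, the initiator caspases *CASP8* and *CASP10*, and their regulator *CFLAR*. They are 10 of 60580 gene symbols listed for each library. All 10 reached at least 20 counts in at least 1 library and were tested among 16123 such genes.

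RNA was sequenced from HCT116, an established cell line of human colorectal cancer with functional p53. Cells of 2 genotypes, *WT* and *miR-34a/b/c-KO* (*KO* cells below, in which CRISPR/Cas9 had removed the stretches that code for mature *miR-34a* and *miR-34b/c*), were treated for 48 h with 4 µM 5-FU, a pyrimidine analog that disturbs nucleotide synthesis, or with DMSO as control. Both genotypes went through transfection with a Cas9 plasmid (without a guide RNA for *WT* cells) and expansion from single cells, and whether the replicates of a group are different clones is not stated in the sources used here, so that p-values measure only the spread between these libraries. Each group has 3 libraries, except *WT* cells after 5-FU, which have 2, since replicate 1 of that group was identical to replicate 3 of *WT* cells with DMSO and was left out.

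A death receptor bound by its ligand recruits the adaptor FADD, which gathers caspase-8 and caspase-10 into a complex in which they are activated and then cleave the executioner caspases. FAS binds FAS ligand, TNFRSF10A and TNFRSF10B (DR4 and DR5) bind TRAIL, and TNFRSF1A binds tumor necrosis factor and signals mostly through other adaptors toward NF-kB. TNFRSF10C and TNFRSF10D (DcR1 and DcR2) bind TRAIL without passing on a complete death signal. c-FLIP, the product of *CFLAR*, resembles caspase-8 and limits its activation. *FAS* and *TNFRSF10B* are textbook targets of p53, which is activated by 5-FU.

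The deleted miRNAs recognize mRNAs mainly through bases 2 to 8 of their mature strand, the seed. The mature strands of miR-34a and miR-34b, from the RefSeq table of build GRCh38.p14, are shown with the seed in capitals because they define the words that were searched for in the 3′-UTRs.
hsa-miR-34a-5p (chr1:9151735-9151756, minus strand): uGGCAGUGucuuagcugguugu
hsa-miR-34b-5p (chr11:111512950-111512972, plus strand): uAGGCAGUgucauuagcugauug

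Both miRNAs share most of the seed, shifted by 1 base. The words complementary to them, CACTGCC for miR-34a and ACTGCCT for miR-34b, were searched for on the transcribed strand of the canonical 3′-UTRs of GENCODE release 44. *CFLAR* held 1 word for each miRNA, *TNFRSF10D* held 1 word for miR-34b, and the other 8 genes held none. The mature strand of miR-34c was not available here, so that no separate word was derived from it. Among 19550 protein-coding genes with a 3′-UTR, 15.63% held the word for miR-34a, 13.92% that for miR-34b and 22.14% either. These shares are not matched for length, and the canonical 3′-UTR of *CFLAR* has 12714 bases. Of the 12 *CFLAR* transcripts with a 3′-UTR, 2 hold the word for miR-34a and 4 that for miR-34b. Counting all transcripts with a 3′-UTR, 1 of 28 of *FAS* holds the word for miR-34a. Of the 10 of *TNFRSF1A*, 1 holds the word for miR-34a and 1 that for miR-34b. The words of *CFLAR* lie 1859 and 9613 bases into its 3′-UTR and are shown in capitals with the bases around them.
CFLAR, word for miR-34a (chr2:201165817-201165839, plus strand): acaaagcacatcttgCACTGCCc
CFLAR, word for miR-34b (chr2:201173571-201173593, plus strand): gcctcaggtgatctgACTGCCTt

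The p53 consensus, 2 adjacent half-sites with up to 2 mismatches outside the cores, was searched for on both strands from 1000 bases before to 2000 bases after the canonical transcription start. It was found in 2 of the 10 genes, *FAS* and *TNFRSF10B*, in both cases in intron 1, at 511 and 390 bases from the start, and in 223 of 20033 protein-coding genes (1.11%). The match in *FAS* is shown with the core of each half-site in capitals.
FAS, intron 1 (chr10:88991309-88991328, plus strand): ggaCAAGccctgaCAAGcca

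A word match is a description of the sequence and does not show binding. In GRCh38, the 4 TRAIL receptor genes lie side by side on chromosome 8, *TNFRSF10B* at 23020133 to 23069031, *TNFRSF10C* at 23102921 to 23117445, *TNFRSF10D* at 23135588 to 23164027 and *TNFRSF10A* at 23190452 to 23225102, with *TNFRSF10C* on the plus strand and the other 3 on the minus strand. *CFLAR* (201116154 to 201176687), *CASP10* (201182872 to 201229428) and *CASP8* (201233443 to 201361836) follow each other on the plus strand of chromosome 2. *FAS* lies on chromosome 10 (88953813 to 89029605, plus strand), *FADD* on chromosome 11 (70203296 to 70207390, plus strand) and *TNFRSF1A* on chromosome 12 (6328757 to 6342114, minus strand).

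Total counts per library ranged from 22831415 to 39064210. The hairpins *MIR34A*, *MIR34B* and *MIR34C* were at 0 counts in all libraries, and *MIR34AHG*, the host transcript of miR-34a, was at 101 to 185 counts in *WT* and 514 to 675 in *KO* cells with DMSO. The host extends beyond the deleted region and does not check the genotype. Of 8 markers of colon epithelium 7 were detected, *LGALS4* not, and their summed level in CPM (counts relative to the library total, scaled by the upper quartile) was 5269 to 5557 in *WT* and 5469 to 5669 in *KO* cells with DMSO, and 11130 to 12190 and 8560 to 9035 after 5-FU. Most of this sum came from the keratins *KRT8*, *KRT18* and *KRT19*, while *CDH17* was at 35 counts or fewer in every library. At least 20 counts in a library were reached by 1 of 5 lymphoid and myeloid markers (*LYZ*), 1 of 3 fibroblast markers (*COL1A1*) and 0 of 2 endothelial markers. The sum of the fibroblast markers, mostly *COL1A1*, was 21.7 to 26.8 CPM in *WT* and 46.0 to 50.5 CPM in *KO* cells with DMSO, and 49.5 to 59.9 and 69.8 to 70.6 CPM after 5-FU. The part of these shifts in the results below was not tested. All libraries come from the same cell line, and bulk RNA cannot tell a change in all cells from a change in some of them.

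The first comparison asks how 5-FU changed these genes in *WT* cells. A gene was called with FDR < 0.05 over all genes tested and a fold change above 1.5 (edgeR). In *WT* cells 7 of the 10 genes were called higher after 5-FU, against 18.5% of all genes tested, and 0 were called lower, against 9.38%. By FDR alone 8 rose and 1 fell, 9 of 10 against 60.2% of all genes. Their median log2 fold change was 0.91, that of all genes 0.03. In *KO* cells 6 were called higher (13.3% of all genes) and 0 lower (12%). By FDR alone 8 rose and 2 fell, 10 of 10 against 60.4% of all genes, with a median of 0.99 against −0.06 for all genes. With RUVg, a normalization step of the study that was run here with 1 factor, 0 of the 7 and 0 of the 6 genes were called. Of all 16123 genes tested, it called 3 higher and 0 lower in *WT* cells and 1 higher and 0 lower in *KO* cells. The log2 fold change in *WT* cells was then 4.81 (SE 0.88, FDR 0.102, edgeR) for *FAS*, 1.94 (SE 0.65, FDR 0.178, edgeR) for *TNFRSF10D* and 0.94 (SE 1.37, FDR 0.766, edgeR) for *TNFRSF10C*. Of the variance of this factor, 98.2% lay between the treatments. Since the factor nearly repeats the treatment, this fit cannot test the response to 5-FU. The study itself used RUVg before DESeq2 and reported genes changed in both directions after 5-FU in both genotypes.

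**Figure D1:**
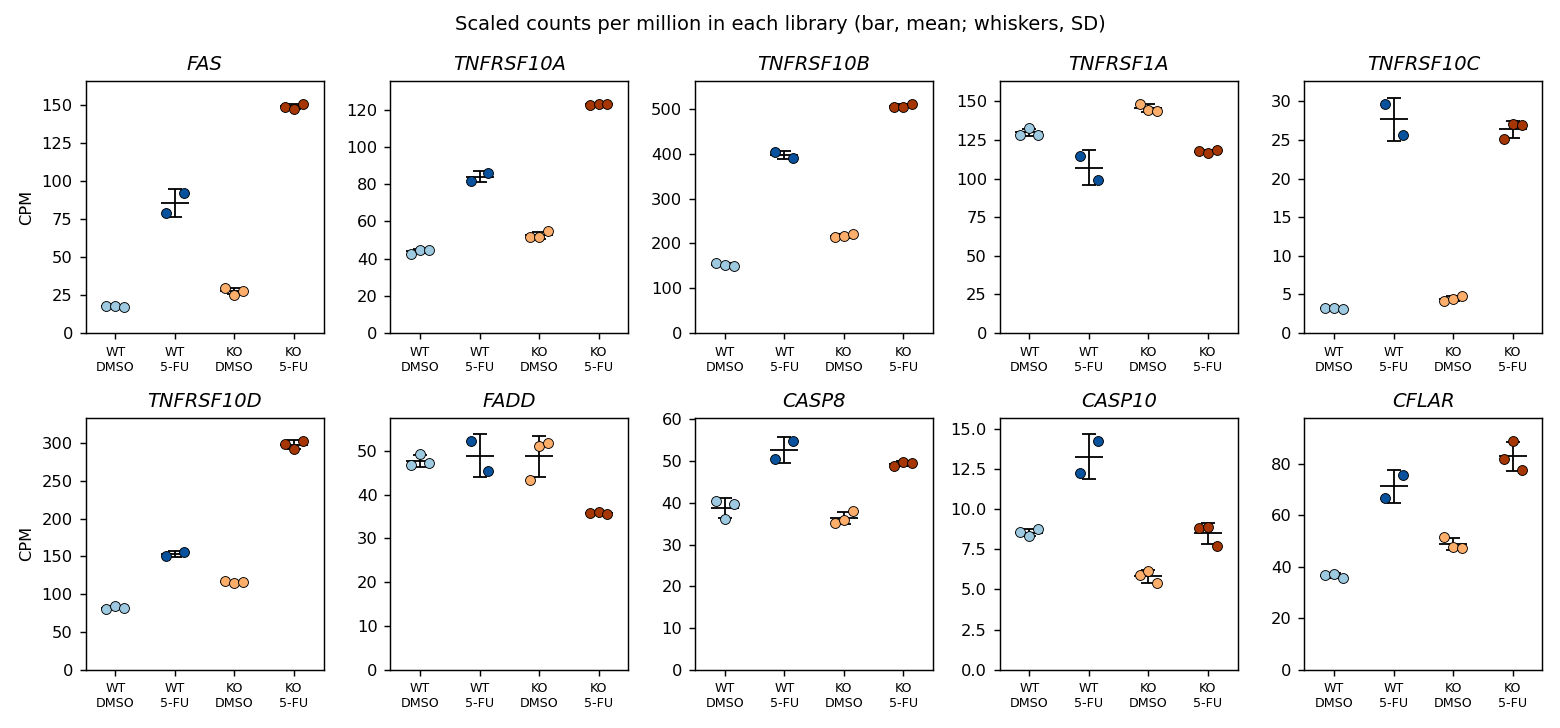
Scaled counts in CPM (y axis, starting at 0) of the 10 genes in each library of the 4 groups (x axis), with the mean as a bar and the SD as whiskers. The 4 TRAIL receptors, *FAS* and *CFLAR* lie higher in all 5-FU libraries than in the DMSO libraries of the same genotype, and *FADD* is lowest in the 3 5-FU libraries of *KO* cells, at 35.5 to 36.1 CPM.

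*FAS*, the receptor of FAS ligand, had one of the larger changes. It was at 17.8, 17.5 and 17.3 CPM in *WT* cells with DMSO and at 79.2 and 91.8 CPM after 5-FU. In *KO* cells it was at 29.5, 25.2 and 27.9 CPM with DMSO and at 149, 148 and 151 CPM after 5-FU. Within each genotype the 5-FU libraries did not overlap the DMSO libraries, and at each treatment the *KO* libraries lay above all *WT* libraries. The log2 fold change after 5-FU was 2.29 in *WT* cells (SE 0.07, FDR 2.88e-13, edgeR), a 4.88-fold rise. In *KO* cells it was 2.44 (SE 0.07, FDR 5.1e-14, edgeR), a 5.41-fold rise. These 2 responses were not detectably different (interaction 0.15, 95% CI −0.06 to 0.36, FDR 0.285, edgeR).

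*TNFRSF10B*, which encodes the TRAIL receptor DR5, had the highest level per kb of the 10 genes after 5-FU. It was at 156, 152 and 149 CPM in *WT* cells with DMSO and at 403 and 390 CPM after 5-FU, and at 214, 216 and 221 CPM and 505, 506 and 512 CPM in *KO* cells. All 5-FU libraries lay above all DMSO libraries. The log2 fold change was 1.38 in *WT* cells (SE 0.05, FDR 1.11e-12, edgeR) and 1.23 in *KO* cells (SE 0.04, FDR 1.34e-12, edgeR). The difference between the 2 responses was −0.15 (95% CI −0.29 to −0.01) and did not pass the adjustment over all genes (FDR 0.106, edgeR).

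*TNFRSF10A*, which encodes DR4, was at 42.7, 44.8 and 44.7 CPM in *WT* cells with DMSO and at 82.0 and 86.2 CPM after 5-FU. The *KO* libraries held 51.4, 51.8 and 54.8 CPM with DMSO and 123 CPM in each of the 3 5-FU libraries. The groups did not overlap, and the 5-FU libraries of *KO* cells were the highest. The response was larger in *KO* than in *WT* cells, with log2 fold changes of 1.22 (SE 0.05) and 0.93 (SE 0.05) and an interaction of 0.29 (SE 0.07, FDR 0.00806, edgeR).

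*TNFRSF1A*, the receptor of tumor necrosis factor, went the other way. It was at 129, 133 and 129 CPM in *WT* cells with DMSO and at 115 and 99.1 CPM after 5-FU. The *KO* libraries were at 148, 145 and 144 CPM and at 118, 116 and 118 CPM. The 5-FU libraries lay below all DMSO libraries. The fall was small, with log2 fold changes of −0.28 (SE 0.06, FDR 0.000599, edgeR) in *WT* and −0.31 (SE 0.05, FDR 8.12e-05, edgeR) in *KO* cells, below the required 1.5-fold. The interaction was −0.03 (95% CI −0.19 to 0.14, FDR 0.813, edgeR), and its sign turned with other scaling factors.

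The decoy receptors rose as well, and their responses differed between the genotypes in opposite directions. *TNFRSF10C*, which encodes the membrane-anchored decoy DcR1, was low without treatment, at 3.21, 3.27 and 3.10 CPM (74 to 107 counts) in *WT* cells with DMSO, and at 29.7 and 25.7 CPM after 5-FU. In *KO* cells it was at 4.14, 4.39 and 4.77 CPM and at 25.1, 27.1 and 26.9 CPM. After 5-FU the libraries of both genotypes overlapped, while with DMSO those of *KO* cells were higher. The log2 fold change of 3.12 (SE 0.10, FDR 2.87e-13, edgeR) in *WT* cells, an 8.70-fold rise, was the largest of the 10 genes. That in *KO* cells was 2.57 (SE 0.09, FDR 1.01e-12, edgeR), and the interaction was −0.55 (SE 0.14, FDR 0.00902, edgeR). Of all windows of 100 bases in its canonical transcript, 24.23% also occur in 2 annotated genes of the same locus that share its exons (ENSG00000284948 and ENSG00000284956), so that its counts may be split or include reads of these.

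*TNFRSF10D*, which encodes DcR2, a decoy with a truncated death domain, was at 80.6, 84.6 and 81.6 CPM in *WT* cells with DMSO and at 150 and 156 CPM after 5-FU. In *KO* cells it was at 117, 114 and 117 CPM and at 298, 291 and 303 CPM. The 3 *KO* libraries after 5-FU stood far above all others. The rise after 5-FU on the log2 scale was 0.90 (SE 0.05, FDR 1.65e-10, edgeR) in *WT* and 1.36 (SE 0.04, FDR 3.37e-13, edgeR) in *KO* cells. The interaction of 0.46 (SE 0.07, FDR 1e-04, edgeR) had the smallest FDR of the 10 genes and stayed below 1.5-fold. Its 3′-UTR holds a word for miR-34b, as do those of 13.92% of protein-coding genes with a 3′-UTR. The part of this word in these values was not tested.

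**Figure D2:**
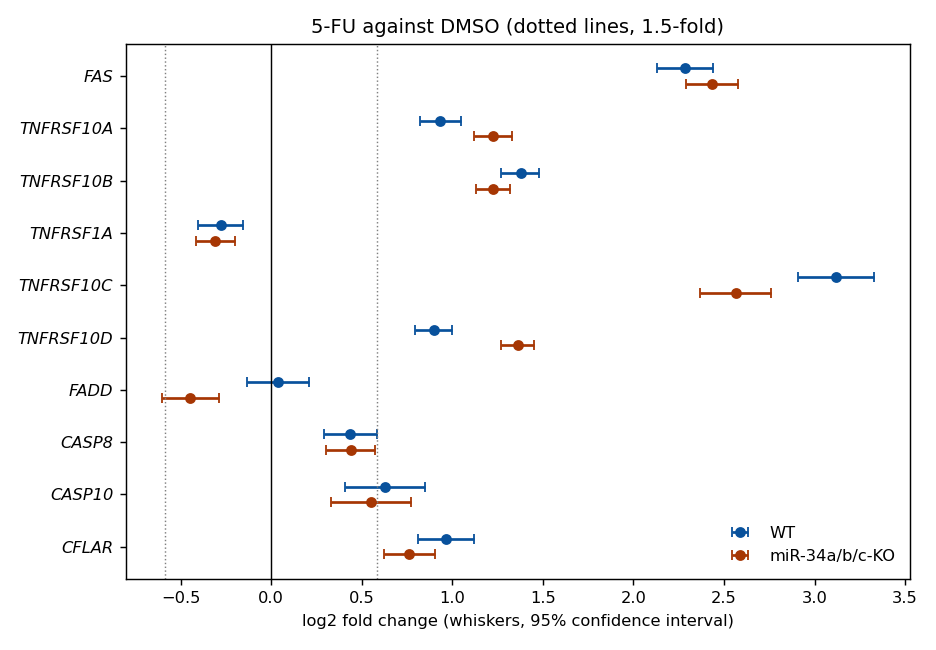
Log2 fold change of 5-FU against DMSO (x axis) of the 10 genes (y axis) in *WT* and *KO* cells, with the 95% confidence interval as whiskers and dotted lines at 1.5-fold. *TNFRSF10C* shows the largest rise in both genotypes (3.12 and 2.57), *TNFRSF1A* lies below 0 in both, and *FADD* lies below 0 in *KO* cells only, with an interaction of −0.49 (FDR 0.00419, edgeR).

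Of the intracellular part of the complex, *FADD*, the adaptor that links receptors to caspases, was at 46.8, 49.3 and 47.1 CPM in *WT* cells with DMSO and at 52.4 and 45.4 CPM after 5-FU. The level in *KO* cells was 43.4, 51.1 and 51.8 CPM with DMSO and 35.7, 36.1 and 35.5 CPM after 5-FU. The 3 *KO* libraries after 5-FU lay below all other libraries, and the other groups overlapped. The log2 fold change was 0.04 (95% CI −0.13 to 0.21, FDR 0.716, edgeR) in *WT* cells and −0.45 (SE 0.07, FDR 6.91e-05, edgeR) in *KO* cells, and the interaction was −0.49 (SE 0.11, FDR 0.00419, edgeR). A lncRNA annotated on the opposite strand covers 59.19% of the *FADD* exons. Since the strand setting of the counting is not given in the sources used here, reads of the 2 genes cannot be told apart.

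*CASP8*, the main initiator caspase, was at 40.5, 36.1 and 39.8 CPM in *WT* cells with DMSO and at 50.4 and 54.9 CPM after 5-FU, and at 35.1, 35.9 and 38.0 CPM and 48.7, 49.9 and 49.4 CPM in *KO* cells. Every 5-FU library was above every DMSO library. With 5-FU it rose by 0.44 on the log2 scale in both genotypes (FDR 4.71e-05 in *WT* and 1.86e-05 in *KO* cells, edgeR), 1.35-fold, below the required 1.5-fold. The interaction was 0.00 (95% CI −0.20 to 0.20, FDR 0.991, edgeR), and its sign turned under some of the alternatives.

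*CASP10*, the second initiator caspase, had the lowest level per kb of the 10 genes after 5-FU. It was at 8.56, 8.29 and 8.77 CPM in *WT* cells with DMSO and at 12.3 and 14.3 CPM after 5-FU, and at 5.89, 6.18 and 5.40 CPM and 8.84, 8.88 and 7.73 CPM in *KO* cells. The *KO* libraries lay below the *WT* libraries at each treatment. After 5-FU the log2 fold change was 0.63 (SE 0.10, FDR 6.74e-05, edgeR) in *WT* and 0.55 (SE 0.10, FDR 0.000253, edgeR) in *KO* cells. With values this close to 1.5-fold, *CASP10* was no longer called in *WT* cells when their replicate 3 after 5-FU was left out (0.52), and a call in *KO* cells was gained with TMM scaling (0.59).

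*CFLAR*, the gene of the caspase-8 regulator c-FLIP, was at 36.9, 37.2 and 35.5 CPM in *WT* cells with DMSO and at 66.7 and 75.8 CPM after 5-FU. For *KO* cells the values were 51.7, 47.7 and 47.2 CPM with DMSO and 81.8, 89.0 and 77.7 CPM after 5-FU. The 4 groups did not overlap. As log2 fold changes these were 0.96 (SE 0.07, FDR 1.09e-08, edgeR) in *WT* and 0.76 (SE 0.07, FDR 4.88e-08, edgeR) in *KO* cells, with an interaction of −0.20 (95% CI −0.41 to 0.01, FDR 0.148, edgeR). Its 3′-UTR holds the words for miR-34a and miR-34b shown above, whose part in these values was not tested.

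**Figure D3:**
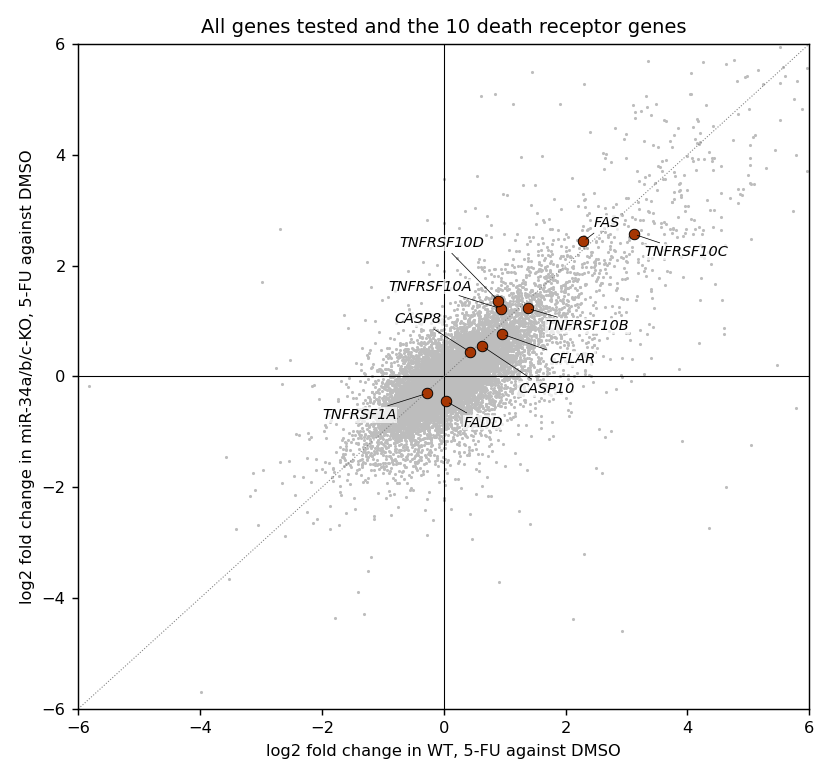
Log2 fold change of 5-FU against DMSO in *WT* cells (x axis) and in *KO* cells (y axis), for 16048 of the 16123 genes tested (grey, those within ±6) and the 10 genes (dark points, named). *FAS* and *TNFRSF10C* lie far to the upper right, *TNFRSF1A* and *FADD* lie near the center, and *TNFRSF10D* lies above the diagonal. Both axes share the genes but no library.

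In the next comparison, *KO* cells were compared with *WT* cells without 5-FU. Since the clones behind the libraries are not stated, effects of the deletion and differences between clones cannot be told apart. *FAS* was called higher, 1 of 10 against 9.1% of all genes, and 0 were called lower, against 4.97%. By FDR alone 7 genes were higher and 1, *CASP10*, was lower, 8 of 10 against 46.3% of all genes. The median log2 difference was 0.34 for the 10 genes and 0.03 for all genes.

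The log2 difference of *FAS* was 0.65 (SE 0.07, FDR 1.94e-06, edgeR), a 1.57-fold higher level. The call is near its threshold and was lost when a fold change above 1.5 was itself tested (glmTreat, FDR 0.56). The TRAIL receptors *TNFRSF10B* with 0.50 (FDR 1.7e-07, edgeR), *TNFRSF10D* with 0.49 (FDR 1.87e-07, edgeR), *TNFRSF10C* with 0.48 (FDR 0.00232, edgeR) and *TNFRSF10A* with 0.26 (FDR 0.000511, edgeR) were all higher and below 1.5-fold. *CFLAR* was higher by 0.42 (SE 0.07, FDR 0.000103, edgeR) and *TNFRSF1A* by 0.16 (SE 0.05, FDR 0.0163, edgeR). *CASP10* was lower, with −0.56 (SE 0.10, FDR 0.000335, edgeR), and passed 1.5-fold without replicate 2 of *KO* cells with DMSO (−0.60) and with DESeq2 (−0.59). *CASP8* with −0.10 (95% CI −0.23 to 0.04, FDR 0.243, edgeR) and *FADD* with 0.03 (95% CI −0.12 to 0.19, FDR 0.746, edgeR) did not pass the test.

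**Figure D4:**
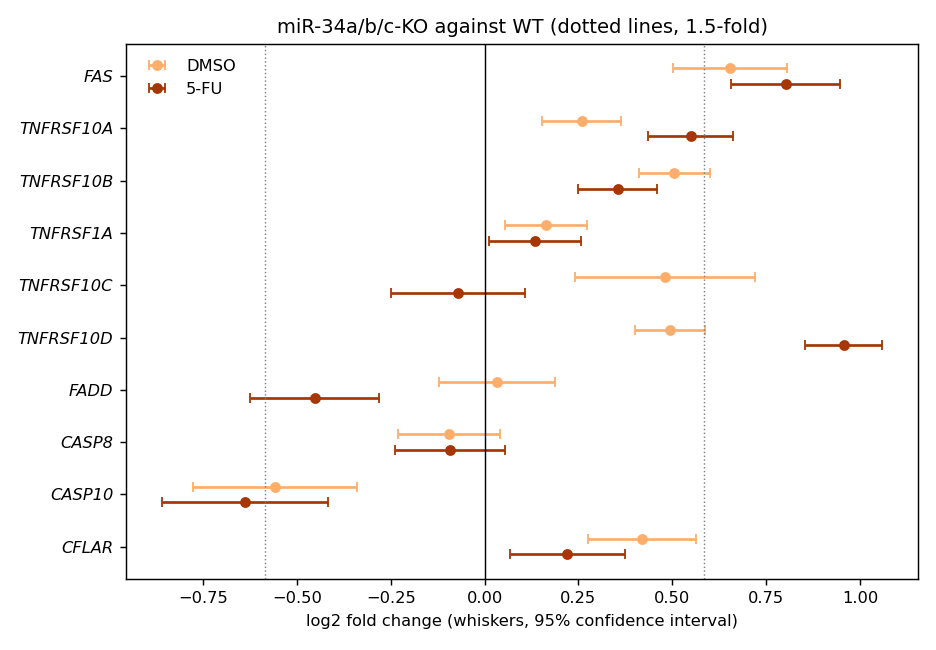
Log2 difference of *KO* against *WT* cells (x axis) of the 10 genes (y axis) with DMSO and after 5-FU, with the 95% confidence interval as whiskers and dotted lines at 1.5-fold. *FAS* lies beyond 1.5-fold at both treatments (0.65 and 0.80), *TNFRSF10D* after 5-FU (0.96), and *CASP10* after 5-FU on the lower side (−0.64).

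After 5-FU, *FAS* and *TNFRSF10D* were called higher in *KO* than in *WT* cells, 2 of 10 against 7.58% of all genes, and *CASP10* was called lower, 1 of 10 against 10.6%. By FDR alone 5 genes were higher and 2 lower, 7 of 10 against 49.6% of all genes. The median log2 difference was 0.18 for the 10 genes and −0.05 for all genes. Among the higher genes *TNFRSF10D* differed most, with 0.96 (SE 0.05, FDR 4.13e-10, edgeR), a 1.94-fold higher level, followed by *FAS* with 0.80 (SE 0.07, FDR 1.22e-07, edgeR), *TNFRSF10A* with 0.55 (SE 0.05, FDR 4.64e-07, edgeR) and *TNFRSF10B* with 0.35 (SE 0.05, FDR 2.35e-05, edgeR). *TNFRSF10A* passed 1.5-fold with TMM (0.59) and DESeq2 scaling (0.60).

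*CFLAR* was higher by 0.22 (SE 0.07, FDR 0.0183, edgeR), *FADD* lower, with −0.45 (SE 0.08, FDR 0.000243, edgeR), and *CASP10* lower, with −0.64 (SE 0.10, FDR 0.000104, edgeR). The call of *CASP10* was lost without replicate 3 of *WT* cells after 5-FU (−0.53) and without replicate 3 of *KO* cells after 5-FU (−0.58). *TNFRSF1A* with 0.13 (95% CI 0.01 to 0.26, FDR 0.0667, edgeR), *TNFRSF10C* with −0.07 (95% CI −0.25 to 0.11, FDR 0.507, edgeR) and *CASP8* with −0.09 (95% CI −0.24 to 0.05, FDR 0.282, edgeR) did not pass the test. The neighbors *CFLAR* and *CASP10* thus differed between the genotypes in opposite directions at both treatments.

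Whether the response to 5-FU depended on the genotype was tested as an interaction. None of the 10 genes was called, 0 against 3.42% of all genes higher and 6.66% lower, and 4 passed by FDR alone (26.1% of all genes), *TNFRSF10A* and *TNFRSF10D* with a larger and *TNFRSF10C* and *FADD* with a smaller value in *KO* cells. At an unadjusted p under 0.05, 5 of the 10 genes passed, as did at least the 26.1% of all genes that passed by FDR. DESeq2 likewise called 0. The balance of all genes depended on the scaling, with 551 called higher and 1073 lower here and 703 and 674 with DESeq2. The 10 genes had a median of −0.05 and all genes of −0.09. *TNFRSF10C* was called lower without replicate 1 of *KO* cells with DMSO (−0.60) and without replicate 3 of *WT* cells after 5-FU (−0.65). The comparisons share libraries, so that their values for a gene are not independent of each other.

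The balance within the system can be read from ratios of its genes in the same library. *CFLAR* counts divided by *CASP8* counts, the regulator against the caspase, were 0.911, 1.03 and 0.892 in *WT* cells with DMSO, 1.32 and 1.38 in *WT* cells after 5-FU, 1.47, 1.33 and 1.24 in *KO* cells with DMSO and 1.68, 1.78 and 1.57 in *KO* cells after 5-FU. The means were 0.944 ± 0.0746 (SD, n = 3), 1.35 ± 0.0410 (SD, n = 2), 1.35 ± 0.116 (SD, n = 3) and 1.68 ± 0.106 (SD, n = 3). The ratio was lowest in untreated *WT* cells and highest in *KO* cells after 5-FU, and the untreated *KO* libraries overlapped the *WT* libraries after 5-FU. After 5-FU the ratio was 1.43-fold higher in *WT* cells (p = 0.2, two-sided exact permutation test) and 1.25-fold higher in *KO* cells (p = 0.1, exact permutation test). With DMSO it was 1.43-fold higher in *KO* than in *WT* cells (p = 0.1, exact permutation test) and 1.24-fold higher after 5-FU (p = 0.2, exact permutation test). These p-values are the smallest that groups of this size allow, so that none of these differences could pass 0.05. Counts of different genes are not adjusted for length, so that a ratio compares libraries and not the number of transcripts.

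Among the 4 TRAIL receptors, the share of the decoys in the length-adjusted levels was 31.3, 32.4 and 31.9% in *WT* cells with DMSO, 32.7 and 32.6% in *WT* cells after 5-FU, 33.2, 32.6 and 32.5% in *KO* cells with DMSO and 37.3, 37.2 and 37.7% in *KO* cells after 5-FU. The share thus lay within 31.3 to 33.2% in 8 libraries and above this range in the 3 *KO* libraries after 5-FU, 4.62 percentage points above the DMSO libraries of that genotype. This share was given as a description and not tested.

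**Figure D5:**
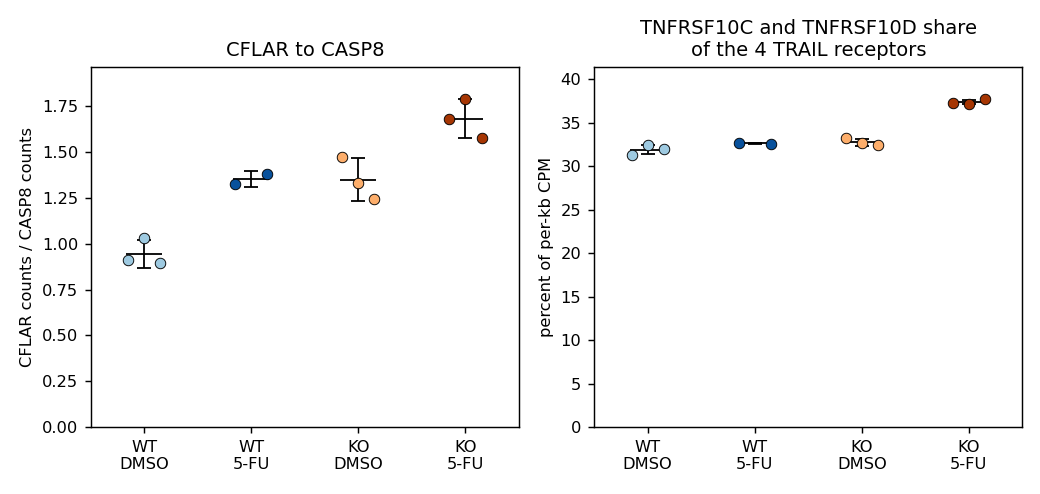
*CFLAR* counts divided by *CASP8* counts (left) and the share of *TNFRSF10C* and *TNFRSF10D* in the CPM per kb of the 4 TRAIL receptors in percent (right) in each library of the 4 groups, with the mean as a bar and the SD as whiskers. Both axes start at 0. The ratio spans 0.892 to 1.78, and the share of the decoys stands at 37.2 to 37.7% in *KO* cells after 5-FU.

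Levels between genes were compared per kb of the canonical transcript. In *WT* cells with DMSO the order by CPM per kb was *TNFRSF1A* (59.9 ± 1.10, SD, n = 3), *TNFRSF10B* (38.2 ± 0.875), *FADD* (28.0 ± 0.784), *TNFRSF10D* (23.3 ± 0.597), *TNFRSF10A* (16.4 ± 0.430), *CASP8* (14.6 ± 0.886), *FAS* (4.74 ± 0.0698), *CFLAR* (2.50 ± 0.0635), *TNFRSF10C* (2.29 ± 0.0611) and *CASP10* (1.51 ± 0.0423). No neighbors in this order overlapped. In *KO* cells after 5-FU *TNFRSF10B* came first (127 ± 0.917, SD, n = 3), followed by *TNFRSF10D* (84.1 ± 1.66), *TNFRSF1A* (54.2 ± 0.516), *TNFRSF10A* (45.7 ± 0.0635) and *FAS* (40.3 ± 0.408), an order that differs from the first in both genotype and treatment. In *WT* cells after 5-FU the first 6 were *TNFRSF10B* (99.3 ± 2.26, SD, n = 2), *TNFRSF1A* (49.3 ± 5.20), *TNFRSF10D* (43.3 ± 1.25), *TNFRSF10A* (31.3 ± 1.12), *FADD* (28.6 ± 2.87) and *FAS* (23.1 ± 2.42), of which *TNFRSF10A* and *FADD* overlapped. In *KO* cells with DMSO the order was that of *WT* cells with DMSO, except that *TNFRSF10D* (32.8 ± 0.420, SD, n = 3) came before *FADD* (28.6 ± 2.73), and *CFLAR* and *TNFRSF10C* overlapped. In *KO* cells after 5-FU, *TNFRSF10C* (18.9 ± 0.785) and *CASP8* (18.5 ± 0.215) overlapped. The place of *FAS*, *CFLAR*, *CASP8*, *CASP10* and *TNFRSF1A* is uncertain, since the exons of all their transcripts together are much longer than the canonical transcript. With all exons *FAS* was at 0.598 CPM per kb in *WT* cells with DMSO and *CASP8* at 5.36.

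Genes around the system were described from lists written with results of these data known, and their counts are read beside those of all genes. Of 8 death ligands only *TNFSF10*, which encodes TRAIL, and *TNFSF12*, which encodes TWEAK, reached 20 counts in a library. *FASLG*, which encodes FAS ligand, was at 2 counts or fewer in every library. *TNFSF10* was at 20 counts or fewer in every library and did not pass any test. *TNFSF12* was at 12.4 ± 0.474 (SD, n = 3) and 16.2 ± 2.44 CPM (SD, n = 2) in *WT* cells without and with 5-FU, and at 16.5 ± 1.07 and 12.9 ± 0.360 CPM (SD, n = 3 each) in *KO* cells. Of the 2 tested ligands it is the 1 with a called interaction, with a log2 value of −0.75 (FDR 0.000757, edgeR). Of all genes, 6.66% were called lower in the interaction and 3.42% higher.

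Of 12 other receptors of the family 11 were tested, of which 4 were called higher and 0 lower after 5-FU in *WT* cells (18.5% and 9.38% of all genes) and 3 higher and 2 lower in *KO* cells (13.3% and 12% of all genes). Their median log2 fold change was 0.34 and 0.33, against 0.03 and −0.06 for all genes. *NGFR*, the p75 neurotrophin receptor, was at 21.2 ± 1.59 (SD, n = 3) and 33.9 ± 3.70 CPM (SD, n = 2) without and with 5-FU in *WT* cells, and at 30.5 ± 1.22 and 105 ± 3.65 CPM (SD, n = 3 each) in *KO* cells, called higher in both. Its interaction was 1.10 (FDR 3.01e-06, edgeR). *RELT* had log2 fold changes of 0.34 (FDR 0.00257, edgeR, below 1.5-fold) in *WT* and 1.05 (FDR 7.06e-09, edgeR) in *KO* cells and an interaction of 0.70 (FDR 0.000414, edgeR). Of the 11 genes the interaction called 2 higher and 0 lower, against 3.42% and 6.66% of all genes. *TNFRSF14* was called higher after 5-FU in both genotypes at 32 counts or fewer in every library.

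Of 24 adaptors, kinases and ubiquitin enzymes that act next to the receptors 22 were tested. In *WT* cells 3 were called higher after 5-FU and 1 lower, and in *KO* cells 3 higher and 0 lower. The share called higher lay below the 18.5% of all genes in *WT* cells and near their 13.3% in *KO* cells, and 9.38% and 12% of all genes were called lower. Their median log2 fold change was 0.08 in *WT* and −0.03 in *KO* cells. *TNFAIP3*, which encodes the ubiquitin-editing enzyme A20, rose by log2 fold changes of 1.79 (FDR 2.31e-10, edgeR) in *WT* and 1.62 (FDR 4.45e-10, edgeR) in *KO* cells. *BIRC3*, which encodes the ubiquitin ligase cIAP2, rose by 1.01 (FDR 3.29e-07, edgeR) and 1.59 (FDR 3.85e-10, edgeR). Both products restrain death signaling from TNFRSF1A, and both genes are known targets of NF-kB. The interaction called 0 of the 22 genes, against 3.42% of all genes higher and 6.66% lower.

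All 17 genes of the executioner arm, which lies downstream of the initiator caspases and in the mitochondrial pathway, were tested. After 5-FU, 4 were called higher and 0 lower in each genotype. Of all genes, 18.5% were called higher in *WT* and 13.3% in *KO* cells, and 9.38% and 12% lower. In both genotypes the 4 genes called higher were *APAF1*, *BAK1*, *BAX* and *GSDME*. The median of the 17 genes was −0.03 in *WT* and 0.08 in *KO* cells. *BAX*, which encodes a pore-forming protein of mitochondria, had log2 fold changes of 1.68 (FDR 1.47e-10, edgeR) in *WT* and 1.06 (FDR 1.26e-08, edgeR) in *KO* cells and a called interaction of −0.62 (FDR 0.00162, edgeR). *GSDME*, which encodes a gasdermin that forms membrane pores when cleaved, rose by 1.46 (FDR 7.34e-11, edgeR) and 1.56 (FDR 9.93e-12, edgeR).

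For comparison, 20 genes known to be induced by p53 were taken. After 5-FU, 18 of them were called higher in *WT* cells (18.5% of all genes) and 19 in *KO* cells (13.3% of all genes). Their medians were 2.19 and 2.0 (log2), against 0.03 and −0.06 for all genes. *CDKN1A*, the cell cycle inhibitor p21, was at 167 ± 1.18 (SD, n = 3) and 2078 ± 143 CPM (SD, n = 2) in *WT* cells without and with 5-FU and at 469 ± 17.5 and 2481 ± 51.9 CPM (SD, n = 3 each) in *KO* cells. With DMSO, 11 of the 20 genes were called higher in *KO* than in *WT* cells (9.1% of all genes), beside *FAS* of the death receptor genes. The interaction called 5 of them lower (6.66% of all genes), *CDKN1A* (−1.24, FDR 1.41e-08, edgeR), *MDM2* (−0.92, FDR 4.79e-06, edgeR), *TP53I3* (−1.27, FDR 2.11e-07, edgeR), *PLK2* and *BAX*, and 0 higher (3.42% of all genes). That of *FAS* was 0.15 and that of *TNFRSF10B* −0.15, neither past the test.

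The genes around the receptors were compared with them. The 10 tested genes nearest to *TNFRSF10B* apart from the TRAIL receptor genes themselves, 5 on each side and spanning 858.1 kb, had log2 fold changes of −1.26 to 1.15 after 5-FU in *WT* cells with a median of −0.17, 2 called higher and 2 lower. *TNFRSF10B* with 1.38 and *TNFRSF10C* with 3.12 exceeded all of these, while *TNFRSF10A* and *TNFRSF10D* exceeded 9 of the 10. The exception was *TNFRSF10A-AS1* with 1.15 (FDR 0.000127, edgeR), which starts inside the receptor cluster, between *TNFRSF10D* and *TNFRSF10A*. It overlaps 7.65% of the *TNFRSF10A* exons on the opposite strand and was at 32 to 48 counts in *WT* cells with DMSO and 106 to 118 after 5-FU. Reads of the 2 genes cannot be told apart where they overlap. The nearest, *RHOBTB2*, rose by 0.71 (FDR 1.19e-06, edgeR), and 377 bases of its exons overlap those of *TNFRSF10B* on the opposite strand. Around *CFLAR* the median of 10 neighbors was −0.38 in *WT* cells, and *CFLAR* exceeded 9 of them. The exception, *IMPDH1P10*, is a pseudogene on the opposite strand that overlaps 6.62% of the *CFLAR* exons and was at 45 counts or fewer in every library. *FAS* exceeded all 10 of its neighbors in both genotypes. Of these, *ACTA2* on the opposite strand, which shares 387 exon bases with *FAS*, rose by 1.93 (FDR 5.84e-11, edgeR) in *WT* cells, and *STAMBPL1*, which shares 166 bases on the same strand, fell by 0.94 (FDR 4.71e-06, edgeR).

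The genes with the pattern most like that of *FAS* over the 11 libraries, by Pearson's r of log2 CPM, were *CPE* (0.997), *SESN1* (0.997), *CEACAM1* (0.997), *CSNK1G1* (0.996) and *ZNF561* (0.996). For *TNFRSF10B* they were *DGKA* (0.999), *SUSD6* (0.999), *TMEM63B* (0.999), *CD82* (0.999) and *BTG2* (0.998). These values are descriptions, since the libraries fall into 4 groups and a gene that differs between these in the same order reaches a high r, as 633 and 680 of 16113 genes did with r above 0.95. *SESN1* and *BTG2* were in the list of p53-induced genes.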

How the data were processed

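Libraries of HCT116 cells in 4 groups were assigned by their titles, and 11 of 12 were analysed. The table labelled as replicate 1 of *WT* cells treated with 5-FU held the same values as replicate 3 of *WT* cells treated with DMSO and bore the header of that library, so it was left out. Per the study's methods, random-primed libraries were read as paired ends and aligned by the authors to GRCh38 (hg38 in the labels) with CLC Genomics Workbench and the ENSEMBL annotation. The strand setting of the counting is not given in the sources used here. The counts deposited by the authors are whole numbers of reads per gene symbol (60580 symbols), without filter or normalization. Total counts were 22831415 to 39064210, and libraries of a group differed by 2.99 to 18.5 times counting error (chi-square per degree of freedom). The highest value was that of the 2 *WT* libraries after 5-FU, and all groups shared 1 estimate of the spread in the fits.

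A gene was tested if any library held 20 or more of its counts (16123 genes). Counts were scaled by upper-quartile factors (0.955 to 1.05) and fitted in 1 model with a mean per group by the two-sided quasi-likelihood test (glmQLFit, glmQLFTest) of edgeR 4.0.16 in R 4.3.3. The 5 comparisons were adjusted by Benjamini-Hochberg over all genes, and a call required FDR < 0.05 and a fold change > 1.5. CPM are counts relative to the scaled library total. Scaling, filter and thresholds follow the study's methods, which used DESeq2 after RUVg. DESeq2 1.42.0 and RUVg (1 factor, 11123 control genes) were run as alternatives, beside TMM, 2 other filters, no minimum fold, glmTreat, replicate blocks, leaving out each library and keeping the identical library. Ratios were compared by exact permutation tests over libraries.

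The 10 genes and all lists were chosen with earlier results of these data known. The rule for named genes was all 10 genes, *CDKN1A* and *MDM2*, from each list up to 6 genes called in the same direction in both 5-FU comparisons or in the interaction, the 5 nearest tested genes on each side of a member, the 5 genes most like *FAS* and *TNFRSF10B*, genes overlapping a member and miR-34 words in 3′-UTRs. *FASLG*, *TNFSF10*, *PLK2* and *MIR34AHG* were named outside it, after their values were seen. A gene that the rule would name is not reported here. Positions and 3′-UTRs are from GENCODE release 44 (GRCh38), where all 10 genes were matched, and miRNAs from RefSeq.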

Additional observations from a re-analysis of the deposited data

Results flagged for a closer look

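The response to 5-FU differed between *KO* (*miR-34a/b/c-KO*) and *WT* cells by the test of the difference itself (interaction, edgeR) for 4 of the 10 death receptor genes. It was larger in *KO* cells for *TNFRSF10A*, with a log2 difference of 0.291 (SE 0.073, FDR 0.00806, edgeR), and for *TNFRSF10D*, with 0.463 (SE 0.065, FDR 1e-04, edgeR). It was smaller, or turned to a fall, in *KO* cells for *TNFRSF10C*, with a difference of −0.553 (SE 0.14, FDR 0.00902, edgeR), and for *FADD*, with −0.485 (SE 0.11, FDR 0.00419, edgeR). All 4 differences lay below 1.5-fold, and 26.1% of all genes tested passed the same test at FDR < 0.05.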

How the results depend on the processing

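The directions of the responses to 5-FU stayed the same under all alternatives for all genes but *FADD* in *WT* cells. The numbers of genes called did not. RUVg with 1 factor left 0 of the 7 genes called higher after 5-FU in *WT* cells and 0 of the 6 in *KO* cells, and called 3 higher in *KO* than in *WT* cells with DMSO. Of all 16123 genes, RUVg called 3 higher after 5-FU in *WT* cells, 1 in *KO* cells and 783 between the genotypes with DMSO. Its factor had 98.2% of its variance between the treatments, so that this fit cannot test the response to 5-FU. Under it the log2 fold changes in *WT* cells moved both ways, to 4.81 for *FAS* and to 0.94 for *TNFRSF10C*. Keeping the identical library as labelled left 0 genes called higher after 5-FU in *WT* cells (0 of all 16123 genes). In *KO* against *WT* cells it left 0 higher with DMSO (1028 of all genes) and 0 lower after 5-FU (1470 of all genes). Without a minimum fold, 1 and 2 genes were called lower after 5-FU in *WT* and *KO* cells, 7 higher and 1 lower between the genotypes with DMSO, 5 higher and 2 lower after 5-FU, and 2 higher and 2 lower in the interaction. Of all 16123 genes, 4569 and 5451 were then called lower after 5-FU in *WT* and *KO* cells. Between the genotypes 3943 were called higher and 3529 lower with DMSO, and 3483 and 4512 after 5-FU. The interaction then called 1622 of all genes higher and 2585 lower. With glmTreat, 0 genes were called higher with DMSO (602 of all genes) and 0 lower after 5-FU (709 of all genes) between the genotypes. DESeq2 called 1 gene lower with DMSO, *CASP10* (−0.59), beside 839 of all genes.

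Without 1 library each, the genes called lower between the genotypes numbered 0 to 1 with DMSO, 0 to 1 after 5-FU and 0 to 1 in the interaction. The first turned on *CASP10* without replicate 2 of *KO* cells with DMSO, the second on *CASP10* without replicate 3 of either genotype after 5-FU, and the third on *TNFRSF10C* without replicate 1 of *KO* cells with DMSO or replicate 3 of *WT* cells after 5-FU. The other counts stayed within 1.5 times.

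Signs turned for differences that had not passed the test, and for *TNFRSF1A* with DMSO. With RUVg these were the interactions of *FAS* (−0.13), *TNFRSF1A* (0.10) and *CASP8* (−0.0056), *FADD* after 5-FU in *WT* cells (−2.19), and *FADD* (−0.33) and *TNFRSF1A* (−0.012) between the genotypes with DMSO. With the identical library they were the interactions of *TNFRSF10B* (0.19), *CASP10* (0.0857) and *CFLAR* (0.0637) and, between the genotypes after 5-FU, *TNFRSF10C* (0.44) and *CASP8* (0.029). The interaction of *TNFRSF1A* was 0.0289 with TMM, 0.0485 with DESeq2 and 0.000265 without a filter, and that of *CASP8* −0.0184 with at least 20 counts in every library. Without 1 library each, ranges crossing 0 were −0.133 to 0.0852 (*TNFRSF1A*, interaction), −0.171 to 0.0427 (*TNFRSF10C* between the genotypes after 5-FU), −0.0739 to 0.136 (*FADD* after 5-FU in *WT* cells), −0.0157 to 0.109 (*FADD* between the genotypes with DMSO), −0.0565 to 0.063 (*CASP8*, interaction) and −0.186 to 0.0294 (*CASP10*, interaction). The cause was not tested.

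The replicate numbers of the titles did not pair the libraries (correlations of deviations −0.0715 to 0.0782). A replicate block by these numbers changed no call of the 10 genes, with 7 and 6 called higher after 5-FU. A block by the numbers in the table headers, added after seeing the data, also left these counts, and the interaction of *CASP8* was −0.0142. *TNFRSF10C*, at 74 to 107 counts in *WT* cells with DMSO, and *CASP10* are limited most by depth.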
